A study of Mus musculus with 10 samples.

Results

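The 40 genes described here encode the core machinery of the cell cycle and of DNA replication. They were taken from a deposited table of H3K4me2 and H3K27me3 occupancy around transcription start sites (TSS) in developing mouse retina. They are 8 cyclins, 4 cyclin-dependent kinases, 3 Cdc25 phosphatases, 3 E2F activators, 8 replication licensing factors, 4 genes of the replication clamp and of nucleotide supply, and 10 genes of mitosis and the spindle checkpoint. Members were chosen by gene symbol, with case ignored, and all 40 were found among the 20044 symbols (25152 entries) of the table. Where a symbol had more than 1 entry, the one with the highest total across libraries stood for it. Whole retinas were pooled, at least 20 for each stage, and chromatin was precipitated with an antibody to H3K4me2 or to H3K27me3 in late embryos (E17.5) and in pups of postnatal days 1, 7 and 15, written PN1, PN7 and PN15 below. Each combination of mark and stage has 1 library. The groups carried no treatment and differed by mark and stage. The sample labels give the strain of all libraries as Pde6b (rd1/rd1) mutant mice, in which rods degenerate. The methods of the study name C57BL/6j mice, with rd1/rd1 mice as a rod subtraction control. Among the library titles only that of PN30 carries rd1, and the study describes the developmental series as wild type. The labels write E17 for the embryonic stage. The rd1/rd1 H3K4me2 library of PN30 and the anti-GFP control library were not analysed here.

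Cyclins bind and activate cyclin-dependent kinases, which drive a cell from growth into DNA synthesis and from there into division. The D cyclins with Cdk4 and Cdk6 release E2F transcription factors from the retinoblastoma protein, and E2F then switches on the genes of licensing, replication and nucleotide supply, whereas many genes of mitosis are switched on later in the cycle. In the mouse retina, dividing progenitors are still present around birth, neurons and glia leave the cycle in a fixed order with rods in large numbers in the days around birth, and the retina at PN15 no longer proliferates. H3K4me2 is found around the TSS of active and poised genes, and H3K27me3, placed by Polycomb complexes, marks silenced or poised genes.

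The values are normalized occupancies: the number of reads within 2.5 kb on each side of a TSS, scaled by the authors to all mapped reads and given as whole numbers. As an internal background, the 95th percentile of 1343 olfactory and vomeronasal receptor genes, which are silent in retina, was taken in each library and is called the silent-gene level. It was 5, 8, 1 and 7 for H3K4me2 and 19.9, 20, 20 and 27 for H3K27me3, in order of age. The H3K4me2 library of PN7 stood apart, with 19.5% of entries at 0 against 0.362% to 2.52% in the other H3K4me2 libraries. The H3K27me3 library of PN7 had 3.70% of entries at 0, against 0.0755% to 0.159% in the other H3K27me3 libraries. Whether background was subtracted from either PN7 library is not given in the sources used here. Their counting intervals hold only if their values are scaled reads. The median log2 change over all symbols in H3K4me2 was -0.42 from E17.5 to PN1, -0.50 from PN1 to PN7 and 1 from PN7 to PN15, so that changes are given below relative to the median of all symbols. Intervals are exact Poisson 95% intervals of the value read as a number of reads, or the exact binomial interval of a ratio, and they cover counting error only. With no second library for any mark and stage, no difference has a replicate check and no p-value was computed, and a comparison is one between 2 libraries. The 10 rod markers had a summed H3K4me2 occupancy of 169, 189, 246 and 1010 from E17.5 to PN15, and the 6 microglia markers one of 34, 25, 8 and 30.

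All 40 genes carried H3K4me2 above the silent-gene level at all 4 stages, against 66.8% of all symbols. Their median occupancy was 71.5, 47, 39 and 58 in order of age. The lowest and highest members were 33 (Mcm3) and 127 (Cdk6) at E17.5, 24 (Tyms) and 80 (Cdk6) at PN1, 12 (Mcm3) and 169 (E2f3) at PN7, and 28 (Ccnb2) and 168 (E2f3) at PN15. At PN15 the lowest member, Ccnb2 at 28, stood above the silent-gene level of 7. In whole retina, a smaller number of cells with the mark and less of the mark in each cell cannot be told apart.

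**Figure D1:**
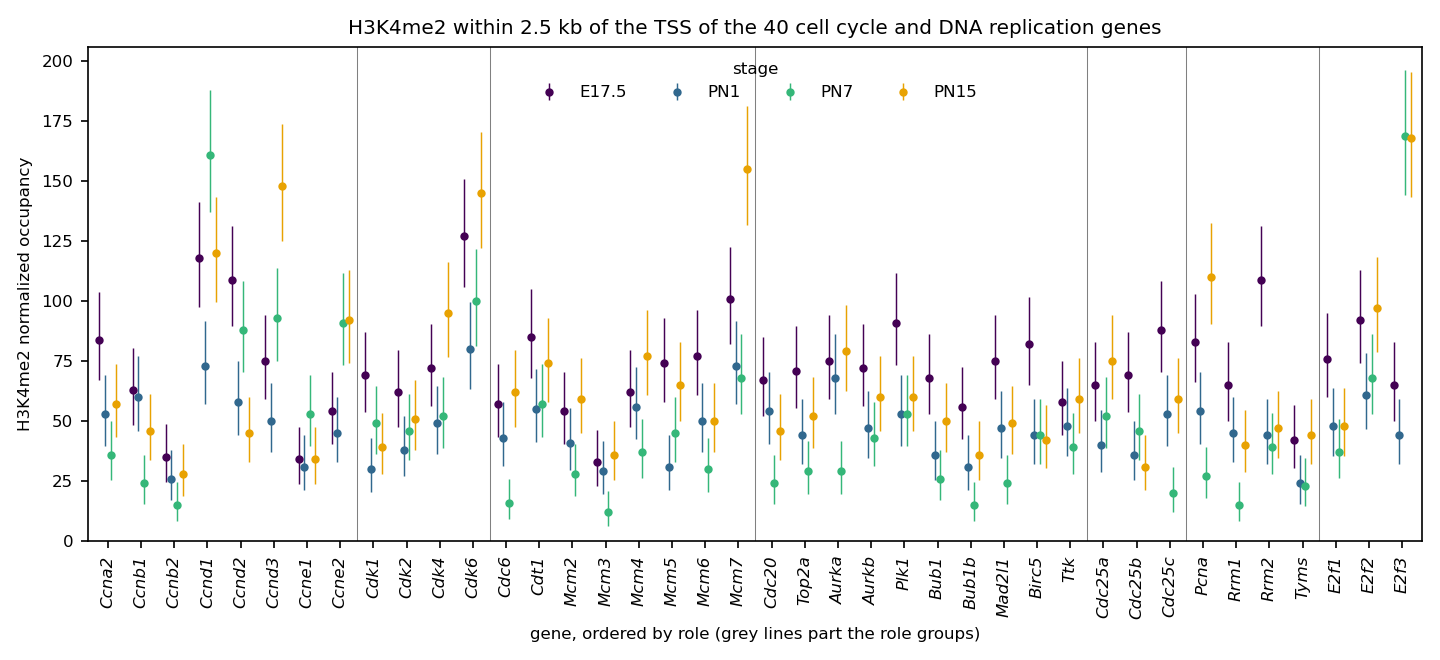
H3K4me2 normalized occupancy (y axis) of each of the 40 genes (x axis, grouped by role) at the 4 stages, 1 library per point; bars are exact Poisson 95% intervals, for counting error only. All points lie at 12 or above, and E2f3 at PN7 and PN15 and Ccnd1 at PN7 lie at 161 or above.

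From E17.5 to PN15, 4 of the 40 genes (10%) were lower in H3K4me2 by at least 2-fold relative to all symbols, namely Ccnd2, Rrm2, Cdc25b and Birc5, and 8.03% of all symbols passed the same limit. Only E2f3 of the 40 was higher past the limit, a share of 2.5%, against 3.26% of all symbols. At the 2-fold limit both shares were thus close to those of all symbols. At a 1.5-fold limit, 14 of the 40 (35%) were lower, against 14.4% of all symbols, and 3 (7.5%) were higher, against 9.58%. A call needs a value above the silent-gene level, which all 40 had. That level was exceeded by 74.4% of all symbols at E17.5 and 70.9% at PN15. Symbols that cannot pass remain in the shares of all symbols, which are thus lower than among genes that can pass. The median change of the 40 genes was -0.36 on the log2 scale relative to all symbols, with 31 genes below the median of all symbols and 9 above it. Relative to the 13396 symbols with H3K4me2 at all 4 stages, a reference chosen after the values were seen, the median was -0.43 with 32 genes below. All 10 genes of mitosis and the spindle checkpoint lay below the median of all symbols, with a group median of -0.62. The licensing factors, with a group median of -0.01, had 6 of 8 genes below it.

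**Figure D2:**
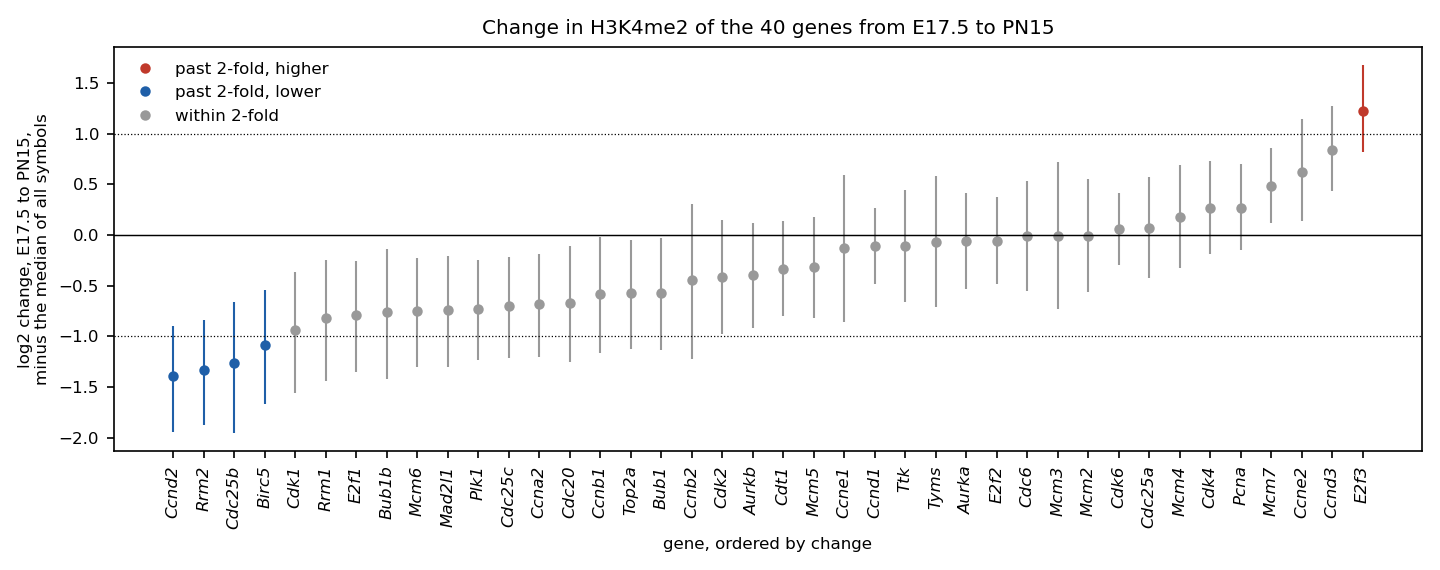
Log2 change in H3K4me2 from E17.5 to PN15 minus the median over all symbols (y axis) for the 40 genes in order of change (x axis); points are (value + 1) ratios, bars are exact binomial 95% intervals of the plain ratio for counting error only, and dotted lines mark 2-fold. Ccnd2, Rrm2, Cdc25b and Birc5 lie past 2-fold lower and E2f3 past 2-fold higher.

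The promoters of 33 of the 40 genes were in a table of RefSeq sequences of the GRCm38.p6 build, and the 250 bases before the start were searched on both strands. Ccna2, Ccnd1, Ccnd2, Ccne2, Cdc25c, Mcm4 and Aurkb were not matched. The letters searched were TTTCCCGC, TTTGGCGC, TTTCGCGC and TTTGCCGC for E2F, TTTGAA and TTCGAA for the cell cycle homology region (CHR), an element of late cell cycle promoters, and CCAAT for the CCAAT box, which NF-Y binds. Matches of the E2F letters can overlap each other, as in Mcm5 and Mcm6, and a promoter was counted once for each motif. E2F letters were found in 8 of 33 members (24.2%) and in 1.91% of 27025 promoters, CHR letters in 8 (24.2%) and in 17.4%, and CCAAT in 23 (69.7%) and in 34.5%. The 8 with E2F letters were Cdc25a, Cdc6, Cdk1, Cdk2, E2f3, Mcm5, Mcm6 and Mcm7. CpG content was 7.2 per 100 bases in the median member and 2.4 in the median promoter. The sequences below are those of Cdk1, Mcm7 and E2f3, which hold letters of all 3 motifs, and of the genes lower past 2-fold that were matched. Cdk1 lies at chr10:69352913-69353162 (minus strand), Mcm7 at chr5:138171884-138172133 (minus strand), E2f3 at chr13:29986064-29986313 (minus strand), Rrm2 at chr12:24708004-24708253 (plus strand), Cdc25b at chr2:131186698-131186947 (plus strand) and Birc5 at chr11:117848987-117849236 (plus strand). Each is written 5′ to 3′ on the strand of the gene, with matches in either orientation in capitals. For E2f3 and Mcm7 the table lists 2 starts and the sequence is that of 1 of them.
Cdk1: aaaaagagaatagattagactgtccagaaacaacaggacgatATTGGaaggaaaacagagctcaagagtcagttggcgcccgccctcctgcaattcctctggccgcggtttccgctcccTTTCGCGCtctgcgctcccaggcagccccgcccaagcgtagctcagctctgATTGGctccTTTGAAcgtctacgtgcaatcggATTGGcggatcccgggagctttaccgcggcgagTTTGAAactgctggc
Mcm7: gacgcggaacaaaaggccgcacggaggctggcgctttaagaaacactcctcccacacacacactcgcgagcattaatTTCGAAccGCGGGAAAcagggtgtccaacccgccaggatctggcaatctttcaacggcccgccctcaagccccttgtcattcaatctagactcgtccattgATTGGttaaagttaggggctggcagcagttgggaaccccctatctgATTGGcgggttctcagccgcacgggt
E2f3: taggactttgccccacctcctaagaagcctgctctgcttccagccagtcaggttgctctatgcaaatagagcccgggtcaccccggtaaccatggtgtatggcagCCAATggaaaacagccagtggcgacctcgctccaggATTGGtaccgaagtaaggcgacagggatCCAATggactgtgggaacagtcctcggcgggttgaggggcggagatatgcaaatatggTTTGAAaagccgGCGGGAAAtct
Rrm2: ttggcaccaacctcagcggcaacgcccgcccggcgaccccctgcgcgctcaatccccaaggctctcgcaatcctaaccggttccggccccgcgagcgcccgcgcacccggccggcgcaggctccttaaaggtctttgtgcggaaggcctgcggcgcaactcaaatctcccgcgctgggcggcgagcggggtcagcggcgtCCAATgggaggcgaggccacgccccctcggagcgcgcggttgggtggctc
Cdc25b: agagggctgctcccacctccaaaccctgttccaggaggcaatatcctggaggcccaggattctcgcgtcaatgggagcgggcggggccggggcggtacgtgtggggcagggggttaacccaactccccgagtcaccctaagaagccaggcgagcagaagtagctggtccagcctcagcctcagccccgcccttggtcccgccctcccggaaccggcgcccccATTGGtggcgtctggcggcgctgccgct
Birc5: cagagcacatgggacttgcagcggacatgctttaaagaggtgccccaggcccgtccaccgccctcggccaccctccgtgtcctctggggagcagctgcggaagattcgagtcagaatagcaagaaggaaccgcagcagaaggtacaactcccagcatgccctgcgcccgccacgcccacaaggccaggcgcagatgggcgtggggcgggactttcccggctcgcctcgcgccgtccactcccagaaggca
A match describes letters and was not tested as a site. The Cdk1 promoter holds CHR letters 71 and 15 bases before the start and CCAAT letters 208, 80 and 48 bases before it.

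Among the cyclins, the largest changes in H3K4me2 from E17.5 to PN15 were those of D cyclins, Ccnd2 lower and, at the entry that was used, Ccnd3 higher. Ccnd1 (cyclin D1, mm9 chr7:152115836-152125774), the main D cyclin of retinal progenitors, had 118, 73, 161 and 120 in H3K4me2 from E17.5 to PN15, and lay between percentiles 94.6 and 99.8 of all symbols at each stage. Ccnd2 (cyclin D2, chr6:127075797-127101066) had 109, 58, 88 and 45. Its ratio of PN15 to E17.5 was 0.413 (counting interval 0.285 to 0.589), or -1.39 relative to all symbols, and its percentile among all symbols went from 98.4 to 51.6. Ccnd3 (cyclin D3) had 75, 50, 93 and 148 at the start that was used, a ratio of 1.97 (1.48 to 2.64) and a relative change of 0.84, under the 2-fold limit. The gene has annotated coding starts that span 88416 bp, and its other 2 entries, identical to each other, go the other way, with 30, 22, 9 and 13 and a relative change of -1.28. At the start that was used, Ccnd3 was the lowest D cyclin at E17.5 and the highest at PN15, and at its other entries it was the lowest at both stages. The E cyclins, which act at entry into DNA synthesis, read 34, 31, 53 and 34 for Ccne1 and 54, 45, 91 and 92 for Ccne2, the latter with a ratio of 1.70 (1.205 to 2.43). The A and B cyclins of DNA synthesis and mitosis lay below the median change of all symbols. Ccna2 had 84, 53, 36 and 57, Ccnb1 63, 60, 24 and 46, and Ccnb2 35, 26, 15 and 28.

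The partners of the D cyclins were the kinases with the most H3K4me2 at PN15. Cdk6, a partner of the D cyclins, had 127, 80, 100 and 145, between percentiles 97.8 and 99.6 at each stage. Cdk4, the other such partner, had 72, 49, 52 and 95, a ratio of 1.32 (0.961 to 1.82). Cdk1, the kinase of mitosis whose promoter is printed above, had 69, 30, 49 and 39, and its ratio of 0.565 (0.372 to 0.849), -0.94 relative to all symbols, stopped short of the limit. Relative to the symbols with H3K4me2 at all 4 stages, Cdk1 passed it. Cdk2, the partner of the E and A cyclins, had 62, 38, 46 and 51, and its counting interval at PN15 overlaps that of Cdk1. The window of Cdk2 also holds the start of Pmel, 1207 bp away on the opposite strand.

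The Cdc25 phosphatases remove inhibitory phosphates from the kinases. Cdc25b, a starter of mitosis, had 69, 36, 46 and 31 in H3K4me2, with a ratio of 0.449 (0.284 to 0.696) and a relative change of -1.26. Cdc25a read 65, 40, 52 and 75 and Cdc25c 88, 53, 20 and 59. Of the 3, Cdc25b was thus the one past the limit. The start of Spef1 lies 333 bp from that of Cdc25b on the opposite strand, so that both are counted in its window.

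E2f1, E2f2 and E2f3 are the activators of S phase genes, and E2f3 differed from the others. E2f3 (mm9 chr13:29998444-30077537), printed above with E2F, CHR and CCAAT letters, had 65, 44, 169 and 168. Its ratio of PN15 to E17.5 was 2.58 (1.93 to 3.50), or 1.22 relative to all symbols, and its percentile went from 75.02 to 99.4. The gene is transcribed from 2 starts, 1449 bp apart in the mm9 annotation, so that the window of either start holds both. E2f1 had 76, 48, 37 and 48, a ratio of 0.632 (0.431 to 0.918), and E2f2 had 92, 61, 68 and 97, a ratio of 1.05 (0.784 to 1.42). The intervals of the ratios of E2f1 and E2f3 do not overlap.

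The licensing factors load the replicative helicase onto origins, with Cdc6 and Cdt1 as loaders and Mcm2 to Mcm7 as the helicase ring. None passed the limit between E17.5 and PN15. The group medians were 68, 46.5, 33.5 and 63.5, so that PN15 was near E17.5. Mcm7 had 101, 73, 68 and 155 and was the highest of the group at each stage, and Mcm3 had 33, 29, 12 and 36 and was the lowest. The window of Mcm7 holds the start of Ap4m1, 417 bp away, and that of Mcm4 the start of Prkdc, 466 bp away, both on the opposite strand. Mcm4 had 62, 56, 37 and 77. Mcm6 was the lowest in change, with 77, 50, 30 and 50, a ratio of 0.649 (0.446 to 0.939). Cdc6 had 57, 43, 16 and 62, Cdt1 85, 55, 57 and 74, Mcm2 54, 41, 28 and 59, and Mcm5 74, 31, 45 and 65.

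Both subunits of ribonucleotide reductase, which makes deoxynucleotides, had lower H3K4me2 values at PN15 than at E17.5, and only Rrm2 passed the limit. Rrm2, the small subunit that is made in S phase, had 109, 44, 39 and 47, a ratio of 0.431 (0.300 to 0.612) and a relative change of -1.33, and its percentile went from 98.4 to 52.9. Rrm1, the large subunit, had 65, 45, 15 and 40, a ratio of 0.615 (0.404 to 0.926), within the limit. Pcna, the sliding clamp, read 83, 54, 27 and 110, and Tyms, thymidylate synthase, 42, 24, 23 and 44. Of the 4, Rrm2 alone passed the limit.

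Birc5, which encodes survivin of the chromosomal passenger complex, was the mitotic gene past the limit, a call that ends without subtraction of the median (log2 change -0.95). It had 82, 44, 44 and 42, a ratio of 0.512 (0.344 to 0.752) and a relative change of -1.08, and its percentile was 89.4, 74.3, 76.5 and 49.8. The other mitotic genes had ratios between 0.643 (Bub1b) and 1.05 (Aurka). The kinase Plk1 was highest of the group at E17.5, with 91, 53, 53 and 60, and the checkpoint kinase Bub1b was lowest, with 56, 31, 15 and 36. The other checkpoint genes read 68, 36, 26 and 50 (Bub1), 75, 47, 24 and 49 (Mad2l1) and 58, 48, 39 and 59 (Ttk). Cdc20, the activator of the anaphase-promoting complex, read 67, 54, 24 and 46, and Top2a, the topoisomerase that untangles chromosomes, 71, 44, 29 and 52. The Aurora kinases read 75, 68, 29 and 79 (Aurka, with the start of Cstf1 146 bp away on the opposite strand) and 72, 47, 43 and 60 (Aurkb).

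Step by step, the calls clustered at PN7, the stage of the library that stood apart. From E17.5 to PN1 no member passed the limit in either direction, against 2.40% of all symbols higher and 0.723% lower. From PN1 to PN7, 8 members were higher (13.6% of all symbols were), namely Ccnd1, Ccnd2, Ccnd3 (at the entry that was used, with the other 2 going from 22 to 9), Ccne1, Ccne2, Cdk1, Mcm5 and E2f3, and 1, Rrm1, was lower (6.38% of all symbols). From PN7 to PN15, none was higher (6.39% of all symbols) and 7 were lower (13.6%), namely Ccnd1, Ccnd2, Ccne1, Cdk1, Cdc25b, Birc5 and E2f3. These counts turned with the scaling. Without subtraction of the median, 3 members were higher and 8 lower from PN1 to PN7 (4.01% and 13.1% of all symbols). From PN7 to PN15, 11 members (27.5%) were then higher, a share below the 31.8% of all symbols, and none was lower (1.62%). After quantile normalization, E2f3 was higher and 6 members, among them Rrm1, were lower from PN1 to PN7 (6.46% and 6.39% of all symbols), while Pcna was higher and Ccnd2, Ccne1 and Cdc25b were lower from PN7 to PN15 (5.94% and 7.46%). Relative to the symbols with H3K4me2 at all 4 stages, 3 members (Ccnd1, Ccne2 and E2f3) were higher and 7 lower from PN1 to PN7 (5.22% and 10.9% of all symbols), and 2 were higher and 5 lower from PN7 to PN15 (8.33% and 9.50%). E2f3, from 44 to 169, a ratio of 3.84 (2.74 to 5.48), passed the limit from PN1 to PN7 under each of these scalings and with a pseudocount of 5. Rrm1, from 45 to 15, a ratio of 0.333 (0.173 to 0.609), passed it under each of these scalings but not with a pseudocount of 5, with which 6 members were higher and none lower (9.18% and 3.63% of all symbols). E2f3 then read 169 and 168 at PN7 and PN15, and its call as lower at that step arose from the median of all symbols.

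Ranks within a library do not depend on scaling. The median percentile of the 40 genes among all symbols in H3K4me2 was 81.3, 79.2, 70.8 and 60.5 from E17.5 to PN15. Above percentile 75 lay 28, 23, 19 and 10 of the 40. The 85 other cell cycle genes, a list of further replication, mitosis and checkpoint genes, had median percentiles of 73.9, 74.3, 65.6 and 67.8, and 81 ribosomal protein genes had 75.02, 76.4, 59.9 and 70.9. The 40 genes thus had the highest median rank of the 3 lists at E17.5 and the lowest at PN15, which was described and not tested. The 14 regulators of retinal progenitors were at 97.7, 97.9, 98.8 and 60.3, and the CDK inhibitors with the retinoblastoma family at 68.7, 79.5, 77.3 and 59.5.

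**Figure D3:**
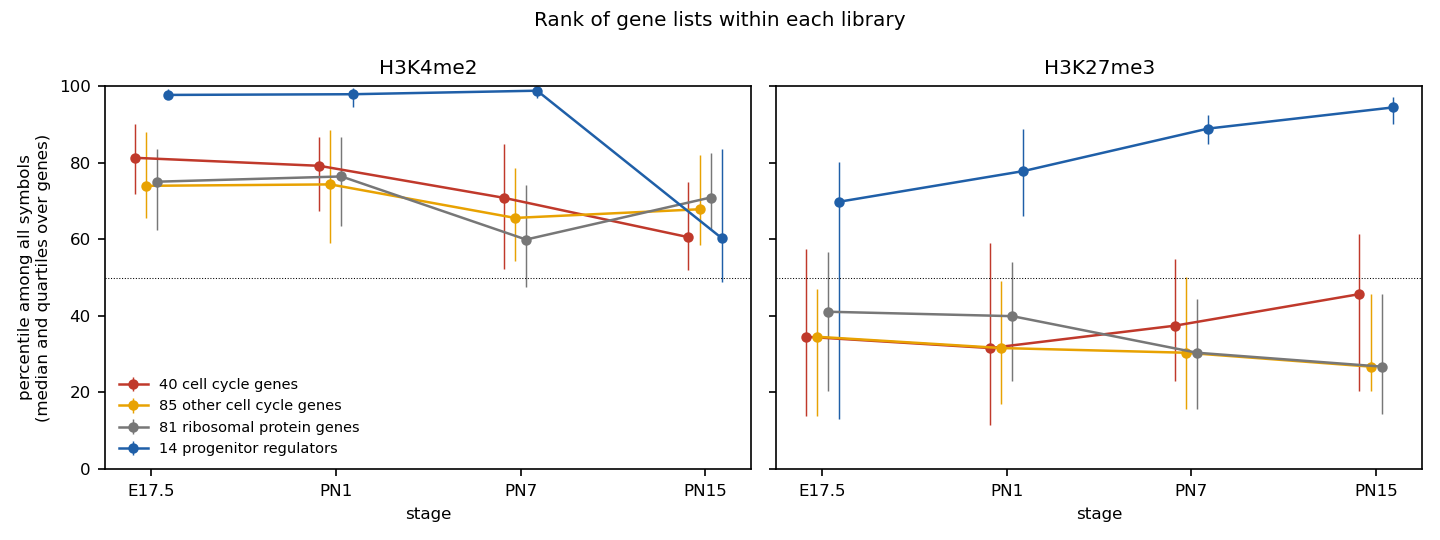
Percentile of gene lists among all symbols (y axis; points are medians over genes, bars are quartiles over genes, not replicate error) in H3K4me2 (left) and H3K27me3 (right) at the 4 stages (x axis), 1 library per stage and mark. In H3K4me2 the median of the 40 genes goes from 81.3 at E17.5 to 60.5 at PN15, and in H3K27me3 it stays below 50 at all stages while that of the 14 progenitor regulators goes from 69.8 to 94.4.

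H3K27me3 was low at most of the 40 genes at every stage. Their median occupancy was 8, 7, 7 and 10, and 34 of them were at or below the silent-gene level in all 4 libraries, with values from 1 (Cdc6 and Mcm4 at PN1) to 24 (Cdk2 at PN15). Above the level lay 5 genes at E17.5 (26.5% of all symbols), 5 at PN1 (26.4%), 3 at PN7 (25.9%) and 4 at PN15 (20.4%). In all, 6 genes (15%) were above it at 1 stage or more, against 32.7% of all symbols, and 3 of them, Ccnd1, Ccnd2 and Rrm2, were above it at all 4 stages (7.5%, against 16.4%). Since every member had H3K4me2, the same 6 genes had both marks at a common stage (28.4% of all symbols), and the same 3 at all 4 (12.6%). The marks were read in separate libraries of whole retina and summed over a window. Both marks on the same chromatin and each mark in different cells or positions cannot be told apart.

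**Figure D4:**
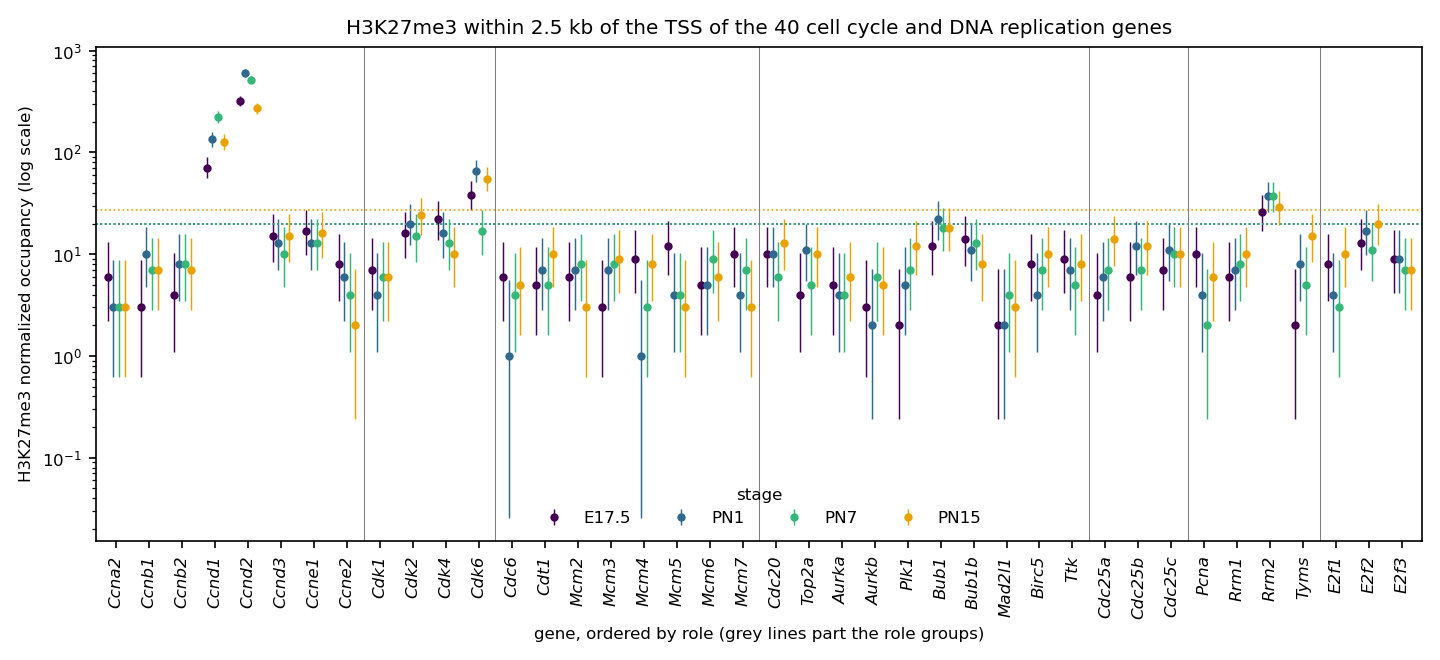
H3K27me3 normalized occupancy (y axis, log scale) of the 40 genes (x axis, grouped by role) at the 4 stages, 1 library per point, with exact Poisson 95% intervals for counting error; dotted lines are the silent-gene levels, 19.9 to 20 at E17.5, PN1 and PN7 and 27 at PN15. Ccnd1, Ccnd2 and Rrm2 lie above them at all stages and Cdk6 at all but PN7.

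Ccnd1 and Ccnd2 had the highest H3K27me3 of the 40 genes in each library. Ccnd2 had 322, 603, 519 and 271 from E17.5 to PN15, between percentiles 97.7 and 99.7 of all symbols, and its ratio of PN15 to E17.5 was 0.842 (0.713 to 0.992). At PN15, the stage with its least H3K4me2, Ccnd2 thus also had its lowest H3K27me3 value, and its rank in that library was its highest. Ccnd1 had 71, 134, 222 and 126, a ratio of 1.77 (1.32 to 2.41) and a relative change of 0.82, within the 2-fold limit, which it passed after quantile normalization and relative to the symbols with H3K4me2 at all 4 stages. Ccnd3, their paralog, read 15, 13, 10 and 15, under the level at each stage, and so did its other 2 entries except for 26 at PN1. Rrm2 had 26, 37, 37 and 29 and Cdk6 had 38, 66, 17 and 55. Bub1, with 12, 22, 18 and 18, was above the level at PN1, and Cdk4, with 22, 16, 13 and 10, at E17.5. The excess over the level was within the counting interval for Bub1 and Cdk4, and also for Rrm2 at E17.5 and PN15. With the 99th percentile of the receptor genes as the level, only Ccnd1, Ccnd2 and Cdk6 were above it at 1 stage or more.

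From E17.5 to PN15, 1 member, Cdk4, was lower in H3K27me3 past the limit (2.5%, against 8.96% of all symbols) and none was higher (3.08% of all symbols). A gene can pass only with at least 1 value above the silent-gene level, which 34 of the 40 never had. Those 34 could not be called at any step, so the small counts do not show that the 40 genes changed less than others. The ratio of Cdk4 was 0.455 with a counting interval from 0.192 to just above 1, and relative to the symbols with H3K4me2 at all 4 stages it no longer passed, while Ccnd1 did as higher. The median relative change of the 40 genes was 0.29, with 24 genes above and 15 below the median of all symbols, at values of which most were under the silent-gene level. From E17.5 to PN1 no member passed in either direction (0.803% higher and 0.284% lower among all symbols). Cdk6 passed as lower from PN1 to PN7 (1 of 40, against 2.20% of all symbols), with a ratio of 0.258 (0.142 to 0.444), and as higher from PN7 to PN15 (1 of 40, against 1.40%), with a ratio of 3.24 (1.85 to 5.95). None was higher at the former step (2.41%) and none lower at the latter (5.71%). Both calls of Cdk6 rest on its value of 17 in the PN7 library, which had more entries at 0 than the other H3K27me3 libraries. Without that library Cdk6 read 38, 66 and 55.

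The 85 other cell cycle genes were also marked by H3K4me2 throughout. All 85 had H3K4me2 above the silent-gene level at all 4 stages (66.8% of all symbols), and 7 of them had H3K27me3 above it at 1 stage or more (32.7% of all symbols), namely Pole, E2f4, E2f6, E2f8, Mybl2, Myc and Bub3. Of 81 ribosomal protein genes, 78 had H3K4me2 at all 4 stages and 8 had H3K27me3 at 1 stage or more. The pattern was thus not particular to cell cycle genes. In H3K4me2 from E17.5 to PN15, none of the 85 was higher and 1 was lower past the limit (3.26% and 8.03% of all symbols), Tk1, the thymidine kinase of S phase, with 68, 61, 28 and 28 and a relative change of -1.38. Their median relative change was -0.09. In H3K27me3, Myc was higher, with 19, 18, 75 and 53, and the polymerase gene Pole, with 51, 66, 26 and 11, and the checkpoint gene Bub3, with 115, 184, 153 and 50, were lower (3.08% of all symbols higher and 8.96% lower).

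Genes that restrain the cycle were examined beside those that drive it. Of the 10 CDK inhibitors and retinoblastoma family genes, 5 were above the silent-gene level in H3K27me3 at 1 stage or more (Cdkn1a, Cdkn1c, Cdkn2a, Cdkn2b and Cdkn2c), and 3 of the 10 were lower past the limit from E17.5 to PN15 (32.7% and 8.96% of all symbols). Cdkn2b (p15) read 296, 363, 218 and 105, Cdkn2c (p18) 61, 61, 20 and 5, and Cdkn1c (p57) 57, 102, 40 and 27. None of the 10 passed the limit in H3K4me2 over the same interval (3.26% of all symbols higher and 8.03% lower), which for 10 genes is near those shares. The regulators of retinal progenitors had larger median changes than the 40 cell cycle genes in both marks. In them, 7 of 14 were lower in H3K4me2 and 11 of 14 higher in H3K27me3 (8.03% and 3.08% of all symbols), with median relative changes of -1.05 and 2.15. Pax6, for example, read 137, 97, 114 and 44 in H3K4me2 and 4, 15, 113 and 178 in H3K27me3. All 10 rod markers were higher in H3K4me2, with a median relative change of 2.54.

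Markers of other cell types were counted in the same libraries. In H3K4me2, the 6 pigment epithelium markers summed to 48, 50, 15 and 40, the 6 lens markers to 60, 67, 25 and 33, and the 6 endothelial markers to 201, 153, 109 and 102 in order of age, beside 2914, 1892, 1923 and 2730 for the 40 cell cycle genes. Of these markers, 1 pigment epithelium, 1 lens and 2 endothelial genes were above the silent-gene level at all 4 stages, and none of the 6 microglia markers was. The 5 neuron markers found of 6 summed to 335, 241, 310 and 492. Their part in the values of the cell cycle genes was not tested.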

How the data were processed

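H3K4me2 and H3K27me3 ChIP-Seq libraries of 4 stages were used. The authors aligned reads to mm9 using Bowtie 0.12.4, excluded reads with several positions, placed each read at the midpoint of an assumed 190 bp fragment and added up those within 2.5 kb of a RefSeq TSS. The deposited numbers are a score, the sums normalized to the mapped reads of a library and rounded to whole numbers, so no count model was used and the depth is unknown. The series has 10 samples, and for 2 of them no values were used here. The PN7 H3K27me3 column carries a letter b after the mark. The labels and the methods of the study give the catalogue numbers of the 2 histone antibodies the other way round.

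Changes are log2((later + 1)/(earlier + 1)) minus the median over all 20044 symbols, and a gene passed when this was at least 1 in size (2-fold) and at least 1 value was above the silent-gene level. A gene at or under that level at both stages could not pass, and such genes remain in the shares of all symbols. Percentiles give ties the middle rank. Every whole number from 0 to at least 109 occurs in each library, so that, if the values are scaled reads, 1 read was worth at most about 1 and the counting intervals are the widest that counting gives. The code was tested on simulated data. All 40 members are named, with the genes of other lists past the limit. The members and the lists were chosen with earlier results of these data known. Of 85 other cell cycle genes, 6 were matched by alias. Gene positions are from GENCODE vM1 (mm9). Promoters are RefSeq sequences of GRCm38.p6. Python 3.11.15, numpy 2.4.6, pandas 2.3.3, scipy 1.17.1 and matplotlib 3.10.9 were used. The alternatives tried were another pseudocount, no centring, quantile normalization, the mean over entries, a 1.5-fold limit, no filter on low values, separate counting intervals, the 99th percentile as the silent-gene level and, added after the values were seen, another reference for centring and leaving out the PN7 libraries.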

Additional observations from a re-analysis of the deposited data

How the results depend on the processing

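Of 83 values under an alternative, 60 stayed within 1.5 times the reported count, or within an allowance for a median, and 23 moved. The allowance was the median half-width of the counting intervals of single genes, 0.53 for H3K4me2 and 1.67 for H3K27me3. It exceeds the size of the medians, -0.36 and 0.29, so a median of the same sign could hardly move, and all medians counted as unmoved. A count of members adds higher and lower ones, so it does not give the direction. In H3K4me2 from PN1 to PN7 the 8 higher and 1 lower became 3 and 8 without centring, 1 and 6 with quantile normalization and 3 and 7 relative to the symbols with H3K4me2 at all 4 stages, and the median of the 40 genes, 0.35 relative to all symbols, was -0.15 without centring and -0.05 relative to those symbols. In H3K27me3 from E17.5 to PN15, that reference gave 1 higher (Ccnd1) in place of 1 lower (Cdk4). The medians from E17.5 to PN15 kept their sign in both marks under each scaling run. Percentages are shares of all symbols past the same limit. The 5 H3K4me2 calls from E17.5 to PN15 were the same genes after quantile normalization, and without centring the Birc5 call was lost (1 higher and 3 lower, against 4.39% and 6.92%). Without centring, 3 members passed in H3K4me2 from E17.5 to PN1, all lower (5.47%), and 11 from PN7 to PN15, all higher (31.8%). With quantile normalization, 4 passed in H3K4me2 from PN7 to PN15 (1 higher and 3 lower, against 5.94% and 7.46%). In H3K27me3, 2 then passed from PN1 to PN7 (1 and 1, against 1.91% and 2.09%) and 2 for E17.5 to PN15 (1 and 1, against 4.05% and 5.46%). With the 1.5-fold limit, the H3K4me2 counts were 3 for E17.5 to PN1 (none higher and 3 lower, against 4.68% and 5.47%), 20 for PN1 to PN7 (13 and 7, against 27.3% and 11.0%), 15 for PN7 to PN15 (2 and 13, against 12.5% and 23.5%) and 17 for E17.5 to PN15 (3 and 14, against 9.58% and 14.4%). The H3K27me3 counts in that order were 4 (all higher, against 4.08%), 2 (1 and 1, against 5.51% and 5.50%), 3 (1 and 2, against 2.73% and 12.03%) and 2 (1 and 1, against 4.81% and 13.7%). Without the filter on low values, they were 10 (5 and 5, against 5.77% and 8.27%), 4 (3 and 1, against 8.44% and 9.33%), 8 (6 and 2, against 14.99% and 9.70%) and 10 (6 and 4, against 12.2% and 16.1%). With counting intervals that do not overlap, 5 passed in H3K4me2 from PN1 to PN7 (4 and 1, against 5.64% and 3.91%) and 1 from PN7 to PN15, as lower (1.57%). In H3K27me3 from E17.5 to PN15, 0 then passed (2.61% and 7.88%), and 0 with a pseudocount of 5 (2.61% and 7.90%), with which the Rrm1 call in H3K4me2 from PN1 to PN7 was also lost. With the 99th percentile of the receptor genes, 3 members had H3K27me3 (20.8%) and 3 had both marks (19.0%). Counts under another limit, filter or level differ by construction, and the cause of the other differences was not tested. Leaving out the 2 PN7 libraries, 40 members had H3K4me2, 6 H3K27me3 and 6 both marks, as with all libraries. The shares of all symbols without these libraries are not given here. No paired analysis was possible because each mark and stage had 1 library. Replicate error could therefore not be measured, and H3K27me3 values under the silent-gene level cannot rank members.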
